A study of Mus musculus with 6 samples.

Results

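The motile cilium axoneme genes described here were the 63 rows, of 18174 in the deposited table, whose gene symbol began with Dnah, Dnai, Dnal, Dnaaf, Cfap, Rsph, Tekt or Drc, most of them followed by a digit. The rule reads the gene symbol and no measured value. All 63 passed the low-read filter that left 15236 genes for testing. Lungs came from wild type male mice of the inbred strain C57BL/6J with free access to food and water. The 3 cold libraries were from mice held at 4 °C for 6 h, and the 3 room temperature libraries were from mice that stayed at room temperature. No age is given for the mice. The libraries of a group are labelled as biological replicates, but whether each is a separate animal is not stated, so every p-value measures the spread between these libraries. The study's title concerns nerve fibres of the lung and heat production in fat, and cold against room temperature is the single comparison its design holds.

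A motile cilium beats by the sliding of the microtubule doublets of its axoneme. Outer and inner dynein arms are the motors, radial spokes and the central apparatus control them, the nexin-dynein regulatory complex links neighbouring doublets, and tektins and other proteins line the doublet lumen. In the lung these structures are made by the multiciliated cells of the conducting airways, where the beat moves mucus out of the lung, and in human patients loss of many of these genes causes primary ciliary dyskinesia. The genes are switched on together in such cells under RFX factors and the forkhead factor Foxj1.

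Levels are given as scaled RPKM per exon kilobase, which is reads per kilobase of exon and per M reads (M is mega), divided by a scaling factor per library. Changes are log2 of cold over room temperature with their standard error, and adjusted p-values are from limma with Benjamini-Hochberg adjustment over the 15236 genes. A call is an adjusted p under 0.05. The recovered depth was 32.7 to 35.1 M reads in cold libraries and 39.7 to 48.7 M reads at room temperature. The 63 genes together took 37971 to 41748 recovered reads per cold library and 111185 to 186686 per room temperature library. Each had 9.63 to 15824 recovered reads per library, and 24 of the 63 had at least 500 in every library. Strandedness is not stated, so reads of overlapping genes on opposite strands cannot be told apart.

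Cold lungs held less RNA of nearly every axoneme gene. Of the 63, 57 were lower in cold, against 35.0% of all genes tested, and 1 was higher, against 35.5% of all genes tested. In either direction 58 of 63 were called, against 70.5% of all genes tested. The median change of the 63 was -1.78, a level 3.44-fold lower in cold, beside a median of 0.00 over all genes tested. The changes ran from -3.11 to 0.98. A change of -1 or below was found in 49 of the 63 and in 16.4% of all genes, and one of -2 or below in 27 of the 63 and in 4.36% of all genes. The 3 cold libraries lay wholly below the 3 room temperature libraries for 57 of the 63, against 37.8% of all genes, and the groups did not overlap in either direction for 60, against 76.2% of all genes. In the authors' deposited table, whose values are scaled by library totals, 42 of the 63 had a q under 0.05 and were lower, against 12.0% of its rows, 0 were higher, and all 42 were also called lower here. The sample titles say lung tissue and name no part of the lung. Fewer ciliated cells, a smaller share of airway in the tissue taken and less RNA per ciliated cell cannot be told apart.

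**Figure D1:**
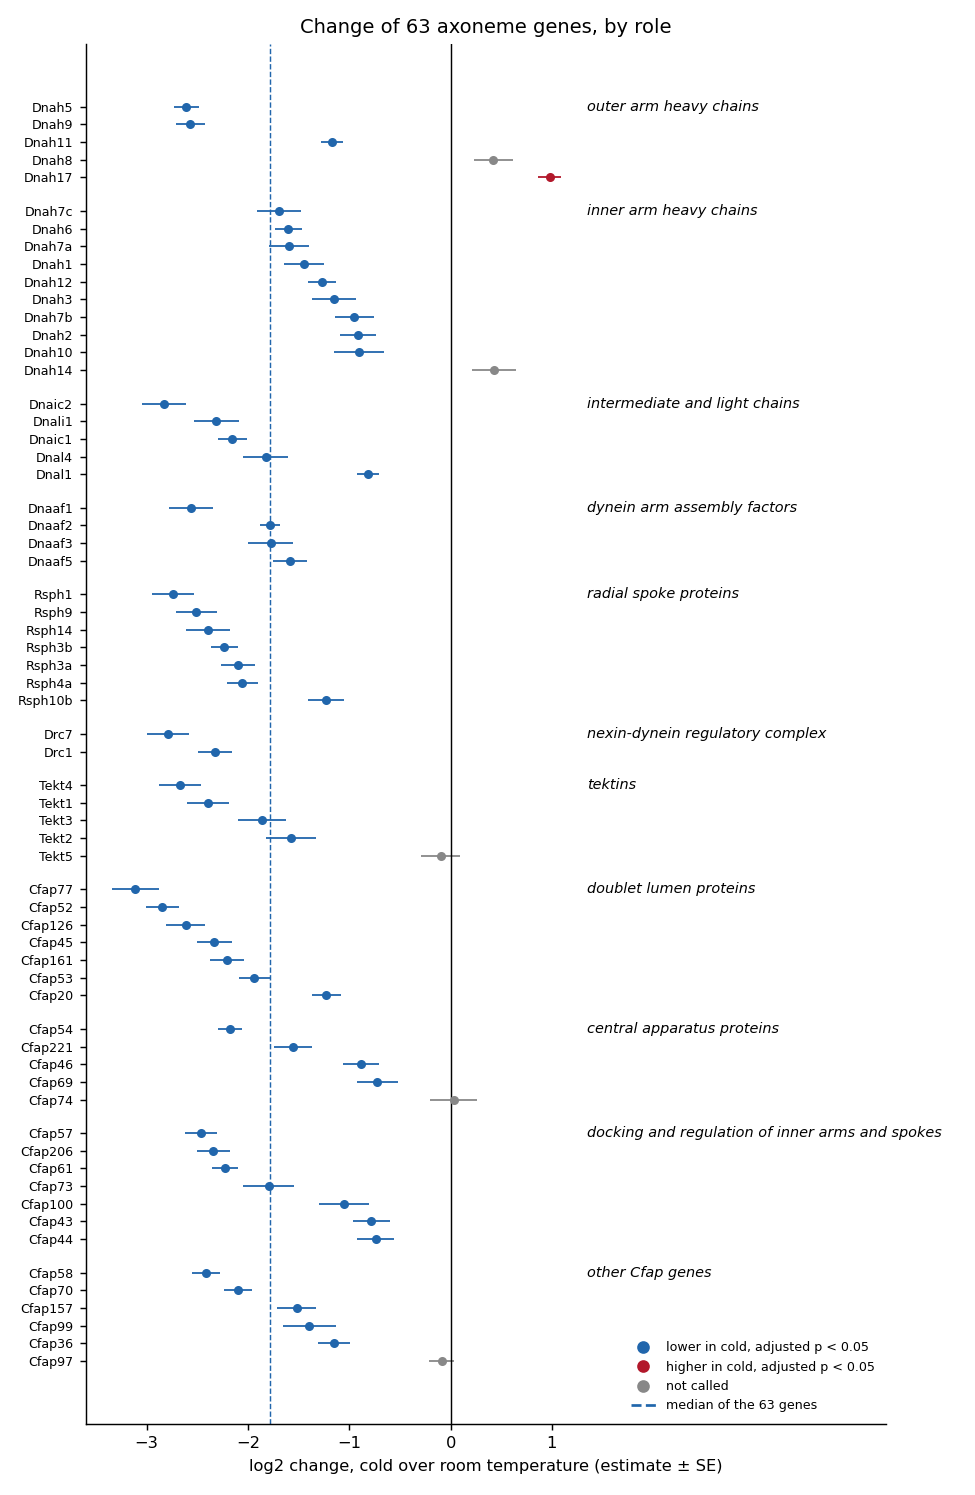
Log2 change of each of the 63 genes, cold over room temperature, with its standard error, grouped by role. Blue points were called lower in cold, the red point (Dnah17) higher, and the 5 grey points neither, and the dashed line is the median of -1.78.

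The genes fell to different extents. With the median of the 63 subtracted in every library, 25 genes fell further than that median, against 3.08% of all genes. Another 21 fell less or rose, against 88.6% of all genes, and 15 of these 21 were still called lower in cold. On deposited RPKM plus 0.01 the count that fell less was 13 in place of 21, and the count that fell more was 31 in place of 25. The remaining 17 could not be told from the median. For these calls against the median the adjustment ran over all 15236 genes tested, most of which were called after the subtraction. It therefore hardly tightened the cut for the 63 genes, whose calls against the median are close to unadjusted ones. Among the weakest were Rsph3a and Cfap54, with an adjusted p of 0.0437 and 0.0408 in that limma fit. The heavy chains, the motor subunits of the dynein arms, stood on the weaker side: 9 of 15 fell less than the median or rose, and 2 of 15 fell more. The 9 include Dnah8 and Dnah14, both near the floor, Dnah17, known from sperm, and Dnah7b, which shares sequence with its copies. Among the other 48 genes the counts were 12 that fell less and 23 that fell more. The median change was -1.17 in the 15 heavy chains and -2.07 in the 48 others. The Spearman correlation of the change with exon length, positive where longer genes fell less, was 0.464 across the 63 genes and 0.344 across the 48 without heavy chains. These genes share the same 6 libraries, and the correlations are descriptions.

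Within each group the libraries kept much the same order from gene to gene. The library labelled room temperature replicate 2 was the highest of its group in 61 of the 63 genes, and replicate 3 the lowest in 59. Cold replicate 3 was the lowest of its group in 46. Per exon kilobase the most abundant member was Tekt4, a tektin of the doublet lumen, at 24.3, 23.6 and 18.9 in cold, against 142, 190.2 and 108 at room temperature. It was followed by Rsph1, a protein of the radial spoke head, at 12.6, 12.6 and 9.51 in cold, against 73.5, 105 and 62.8 at room temperature, and by Dnali1, a light chain of the inner arms, at 13.7, 10.9 and 9.75 in cold, against 55.1, 77.4 and 44 at room temperature. The cold and room temperature values of Tekt4 lay far apart, while the ranges of Rsph1 and Dnali1 overlapped each other within each group. The order between genes depends on the length used. Per kilobase of gene span, introns included, the cold means were 3.45 for Tekt2, 2.36 for Dnali1, 2.02 for Tekt4 and 0.710 for Rsph1. At room temperature they were 10.5, 12.1, 13.3 and 4.94 for the same genes. Per exon kilobase, a mean of at least 10 was reached by 3 genes in cold and by 36 at room temperature. A mean below 1 was found for 11 genes in cold and 5 at room temperature.

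**Figure D2:**
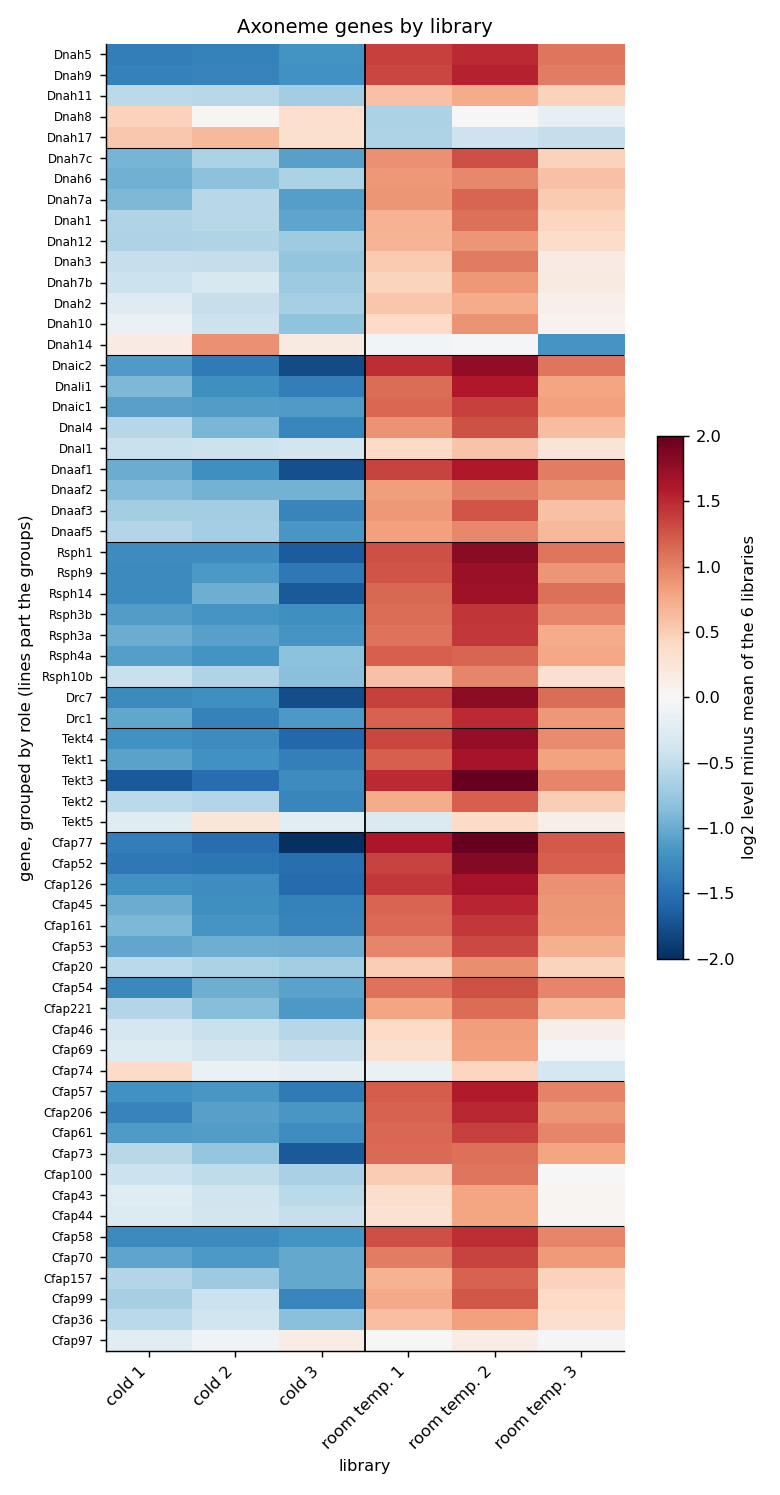
Log2 level of each of the 63 genes (rows, grouped by role) in each library (columns), minus its mean over the 6 libraries. Blue is below and red above that mean, and the rows without the common pattern are Dnah17, Dnah8, Dnah14, Tekt5, Cfap74 and Cfap97.

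The promoters of these genes were read for the sites of the factors named above, in the stretch from 250 bases before to 50 after each RefSeq start (GRCm38.p6), which the table holds for 53 of the 63 genes. Both strands were searched for each motif. The full X-box GTTGCCNNGGNAAC, the site of RFX factors, was in 0 of 53 and in 0.355% of all 27025 genes with a promoter. Its single arm GTTGCC was in 19 of 53, a share of 35.8%, against 14.1% of all genes. The forkhead motif TGTTTAC was in 4 of 53, a share of 7.55%, against 4.05% of all genes, and the 4 were Cfap20, Cfap43, Dnah17 and Tekt3. The single arm was in 7 of 22 genes that fell more than the median, in 5 of 13 that could not be told from it and in 7 of 18 that fell less.

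After the sequences had been read, a looser form of the X-box was noticed and then counted in every promoter: GTTGC followed, 1 to 4 bases on, by its reverse complement GCAAC. It was in 9 of 53, a share of 17.0%, and in 135 of the 27025 genes, a share of 0.4995%. The form was picked from the members' own promoters, so the difference between these shares is not independent of that choice. The repeat can overlap the single arm. Of the 9 sites, 8 are shown 5′ to 3′ on the strand of the gene, with the repeat in capitals and 8 flanking bases on each side, because they show the common form of a site shared by genes of several axoneme parts.
Cfap44 (chr16:44394764-44394793, plus strand): ggagggacGTTGCTATGGCAACcgcagtaa
Dnah7a (chr1:53706821-53706849, minus strand): gccagtttGTTGCTTAGCAACgaatcgac
Dnah7b (chr1:46066821-46066849, plus strand): gccagtttGTTGCTTAGCAACgaatcgac
Dnah7c (chr1:46425441-46425469, plus strand): tccagtttGTTGCTTAGCAACgaatcgac
Dnaic2 (chr11:114727378-114727406, plus strand): cggccaggGTTGCTAGGCAACtggtaaac
Rsph3b (chr17:6948327-6948355, minus strand): aacctcggGTTGCTCGGCAACcgatgggg
Tekt2 (chr4:126325697-126325725, minus strand): agggggcgGTTGCTCGGCAACcagagccg
Tekt4 (chr17:25471546-25471574, plus strand): gtgaccctGTTGCTCAGCAACaggaggca
In the 9 sites the arms were 3 or 4 bases apart. In 8 of them the repeat began 24 to 69 bases before the RefSeq start, and in Rsph3b it began 9 bases after it. Some sites, such as that of Tekt4, lie inside the GENCODE gene span. Dnah7a, Dnah7b and Dnah7c are near copies of a single gene and do not count as separate cases. All 9 genes were called lower in cold, as were 57 of all 63 members and 35.0% of all genes tested. Their median change was -1.60, with a range of -2.83 to -0.74. The median of the other 44 genes with a promoter was -1.80. Of the 9, 3 fell more than the median of all 63, 2 less, and 4 could not be told from it.

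A pair of whole promoters with the repeat is shown because their genes fell to different extents. Dnaic2 changed by -2.83 ± 0.22 and Cfap44 by -0.74 ± 0.18. The repeat began 33 bases before the start in Dnaic2 and 27 bases before it in Cfap44. The promoter of Dnah17, the gene called higher, holds no such repeat, like 44 of the 53. It carries a forkhead motif 201 bases before the RefSeq start. The other carriers of that motif, Cfap20 (-1.23 ± 0.14), Cfap43 (-0.78 ± 0.19) and Tekt3 (-1.86 ± 0.24), were called lower. The Dnah17 window lies inside the GENCODE gene span, which ends at 118130634 on the minus strand. The repeat or motif is in capitals in the 3 sequences.
Dnaic2 (chr11:114727169-114727468, plus strand): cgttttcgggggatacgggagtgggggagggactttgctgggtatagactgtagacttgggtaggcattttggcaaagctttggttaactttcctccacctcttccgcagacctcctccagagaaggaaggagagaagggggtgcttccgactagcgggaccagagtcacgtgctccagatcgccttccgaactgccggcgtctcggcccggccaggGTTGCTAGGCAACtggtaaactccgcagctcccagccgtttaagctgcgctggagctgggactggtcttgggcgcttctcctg
Cfap44 (chr16:44394549-44394848, plus strand): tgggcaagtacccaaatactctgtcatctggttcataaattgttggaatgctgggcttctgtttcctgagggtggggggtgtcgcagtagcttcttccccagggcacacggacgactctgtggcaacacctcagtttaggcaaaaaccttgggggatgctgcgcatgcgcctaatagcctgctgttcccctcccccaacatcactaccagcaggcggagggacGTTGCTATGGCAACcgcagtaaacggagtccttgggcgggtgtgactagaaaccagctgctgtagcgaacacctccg
Dnah17 (chr11:118129170-118129469, minus strand): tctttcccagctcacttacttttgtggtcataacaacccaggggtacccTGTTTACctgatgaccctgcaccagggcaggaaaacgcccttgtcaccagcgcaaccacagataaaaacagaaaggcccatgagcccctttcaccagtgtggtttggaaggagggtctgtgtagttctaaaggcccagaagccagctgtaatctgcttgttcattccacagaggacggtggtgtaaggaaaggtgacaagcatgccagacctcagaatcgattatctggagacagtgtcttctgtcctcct
A match is a description of letters in the window and does not show that a factor is bound there.

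Of the 5 outer arm heavy chains, the 3 called lower are those of airway cilia. Of those known from sperm, Dnah17 was called higher and Dnah8 was not called. Dnah5 (chr15:28203752-28472052, GRCm38), the gamma-type motor of airway outer arms, stood at 2.53, 2.58 and 2.87 in cold, against 17.1, 18.5 and 13.8 at room temperature. Its change was -2.61 ± 0.13 (adjusted p = 4.87e-05). Dnah9 (chr11:65831282-66168551), the beta-type motor of the distal part of the cilium, stood at 1.26, 1.27 and 1.38 in cold, against 8.06, 9.32 and 6.48 at room temperature, a change of -2.57 ± 0.14 (adjusted p = 4.87e-05). For both, every cold library lay below every room temperature library by a wide gap. Dnah11 (chr12:117877982-118199043), the beta-type motor of the proximal part, stood at 1.42, 1.39 and 1.27 in cold, against 3.1, 3.43 and 2.82 at room temperature, a change of -1.17 ± 0.11 (adjusted p = 8.55e-05). It fell less than the median of the 63 genes.

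Dnah17 (chr11:118021723-118130634, minus strand), the beta-type heavy chain of the sperm flagellum, was the only member called higher in cold. It stood at 1.88, 2.01 and 1.61 in cold, against 0.843, 0.971 and 0.922 at room temperature, a change of 0.98 ± 0.12 (adjusted p = 0.000236). Its groups did not overlap, and its change was 0.91 to 1.30 over the 15 alternatives with an adjusted p of at most 0.00204. In the authors' deposited table its q was 0.164. Pgs1, a gene of lipid synthesis on the opposite strand that shares 93 exon bases with Dnah17, had a change of 0.33 ± 0.12 (adjusted p = 0.0410), and its part in the Dnah17 value was not tested. Dnah8 (chr17:30624354-30877365), the gamma-type heavy chain of sperm, was near the floor at 0.0922, 0.0676 and 0.0844 in cold, against 0.0432, 0.0661 and 0.0594 at room temperature, a change of 0.42 ± 0.19 (adjusted p = 0.0855). It was not called here but passed with library-total scaling (0.68, adjusted p = 0.0156) and on deposited RPKM plus 0.01 (0.36, adjusted p = 0.0287). The defining markers of spermatids were at or near 0: of 7 listed, 3 were in the table and 0 passed the filter, and their summed scaled RPM was 0.0812 to 0.192 in cold and 0 to 0.812 at room temperature.

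The mix of outer arm heavy chains is given as a description, with no test. As a share of the summed level of the 5 genes, Dnah5 made up 36.8% ± 2.61 in cold and 57.8% ± 0.774 at room temperature (SD, n = 3 each). Dnah17 made up 25.3% ± 2.69 in cold and 3.24% ± 0.510 at room temperature. Dnah9 took 18.0% ± 0.991 in cold and 27.8% ± 0.977 at room temperature, and Dnah11 took 18.8% ± 1.10 in cold and 11.0% ± 0.627 at room temperature. The shares of each of these genes did not overlap between the groups. The summed level itself was 7.18, 7.32 and 7.21 in cold, against 29.1, 32.3 and 24.1 at room temperature. Per exon kilobase Dnah17 stood between Dnah5 and Dnah11 in each cold library. At room temperature it was below Dnah5, Dnah9 and Dnah11 in every library. Both the shares and this order depend on the length used. Per kilobase of gene span, introns included, the cold mean of Dnah17 was 0.271, above Dnah5 (0.155), Dnah9 (0.0616) and Dnah11 (0.0613). The room temperature means per span were 0.135 for Dnah17, 0.960 for Dnah5, 0.376 for Dnah9 and 0.140 for Dnah11.

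**Figure D3:**
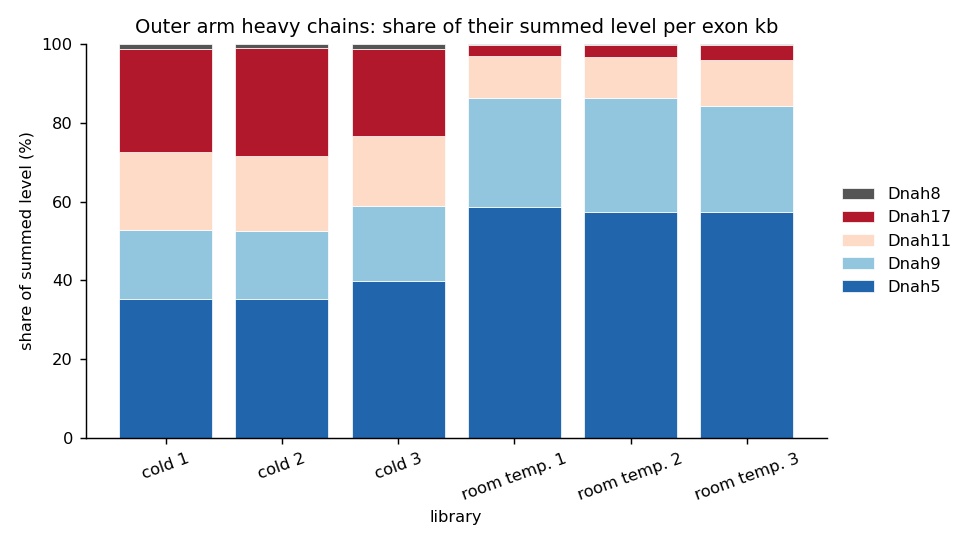
Share of each of the 5 outer arm heavy chain genes in their summed level per exon kilobase, in each library. Dnah17 made up 22.3% to 27.4% in the 3 cold libraries and 2.89% to 3.83% in the 3 room temperature libraries.

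Of the 10 inner arm heavy chains 9 were lower in cold, with a median change of -1.21 over the 10, and none of them fell more than the median of the 63 genes. Dnah6, the most abundant per exon kilobase, stood at 3.76, 4.17 and 4.71 in cold, against 13.3, 14.3 and 11 at room temperature, a change of -1.60 ± 0.13 (adjusted p = 6.67e-05). Per kilobase of gene span its means were 0.274 in cold and 0.837 at room temperature, below Dnah10 at 0.479 and 0.909. Dnah3 stood at 3.48, 3.43 and 2.77 in cold, against 6.92, 9.81 and 5.4 at room temperature, a change of -1.15 ± 0.22 (adjusted p = 0.00231). Dnah6 and Dnah3 are single-headed inner arm motors, as are Dnah12 (-1.27 ± 0.14), Dnah1 (-1.45 ± 0.20) and the Dnah7 copies.

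Dnah10 and Dnah2 form the double-headed inner arm known as I1 or f, and they fell least among the 9. Dnah7b, a single-headed motor, was within their standard errors, at -0.95 ± 0.19. Dnah10 (chr5:124725085-124834308) stood at 4.01, 3.26 and 2.5 in cold, against 5.74, 8.17 and 4.6 at room temperature, a change of -0.90 ± 0.24 (adjusted p = 0.0127). With library-total scaling this call was lost (-0.58, adjusted p = 0.0508), as it was on deposited RPKM (-0.57, adjusted p = 0.0659). Dnah2 (chr11:69420809-69549110) stood at 1.91, 1.66 and 1.44 in cold, against 3.35, 3.85 and 2.45 at room temperature, a change of -0.91 ± 0.18 (adjusted p = 0.00273). The intermediate chains of the same arm, which the naming rule does not take in, had larger changes, -2.30 ± 0.14 for Wdr63 and -1.89 ± 0.19 for Wdr78. This grouping by arm was noticed after the values were seen.

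The 3 copies Dnah7a, Dnah7b and Dnah7c lie on chromosome 1 and share sequence, with 38.6%, 30.05% and 46.8% of their 50-base words found in other genes, so their separate values are uncertain. Their changes were -1.60 ± 0.20 for Dnah7a, -0.95 ± 0.19 for Dnah7b and -1.70 ± 0.22 for Dnah7c. Dnah14 was at the edge of detection, with 9.63 to 39.1 recovered reads per library. It stood at 0.0393, 0.0660 and 0.0395 in cold, against 0.0337, 0.0344 and 0.0155 at room temperature, a change of 0.43 ± 0.22 (adjusted p = 0.112), and was called higher with library-total scaling (0.61, adjusted p = 0.0309). Lbr on the opposite strand, which shares 440 exon bases with Dnah14, rose by 0.87 ± 0.12 (adjusted p = 0.000554). Its part in the Dnah14 value was not tested.

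All 5 intermediate and light chains were lower in cold, with a median of -2.15. Dnaic2 (chr11:114727408-114757889), an intermediate chain at the base of the outer arm, stood at 2.99, 2.47 and 1.9 in cold, against 18.2, 22.4 and 13.7 at room temperature, a change of -2.83 ± 0.22 (adjusted p = 6.35e-05). Its partner Dnaic1 had a change of -2.15 ± 0.14. Both fell more than the median of the 63 genes, and no cold library came near a room temperature one.

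Dnali1, whose levels are given above, had a change of -2.31 ± 0.22 (adjusted p = 0.000120). Dnal4, another axonemal light chain, stood at 8.5, 6.72 and 5.13 in cold, against 23.5, 30.7 and 19.4 at room temperature, a change of -1.83 ± 0.22 (adjusted p = 0.000317). Dnal1, the light chain bound to the gamma-type outer arm heavy chain, fell least of the 5, at 3.43, 3.49 and 3.65 in cold, against 6.2, 6.99 and 5.59 at room temperature, a change of -0.81 ± 0.11 (adjusted p = 0.000376). Its groups did not overlap. It shares 384 exon bases with Pnma1 on the opposite strand, which fell by 1.00 ± 0.15 (adjusted p = 0.000761).

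The Dnaaf proteins preassemble the dynein arms in the cytoplasm. All 4 were lower in cold, with a median of -1.78. Dnaaf1 (chr8:119575235-119598454) stood at 2.99, 2.54 and 1.75 in cold, against 15.2, 17.9 and 12.1 at room temperature, a change of -2.56 ± 0.21 (adjusted p = 7.41e-05). Dnaaf3 stood at 8.61, 8.61 and 5.6 in cold, against 25.4, 33.5 and 21 at room temperature, a change of -1.78 ± 0.22 (adjusted p = 0.000357). Dnaaf5 stood at 4.06, 3.81 and 2.72 in cold, against 10.8, 11.9 and 9.56 at room temperature, a change of -1.58 ± 0.16 (adjusted p = 0.000138). The groups were separate for all of them, and Dnaaf1 was the only assembly factor that fell more than the median of the 63 genes. Dnaaf2 changed by -1.78 ± 0.10, but 68.1% of its 50-base words also occur in other genes at its locus, so its value is uncertain. Taf1c, which shares 19.3% of the words of Dnaaf1, had a change of 0.19 ± 0.20 (adjusted p = 0.433). Of 9 other assembly genes tested, among them Zmynd10 (-2.19 ± 0.22), Lrrc6 (-2.26 ± 0.18) and Dyx1c1 (-1.88 ± 0.21), all 9 were lower, with a median of -1.88.

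**Figure D4:**
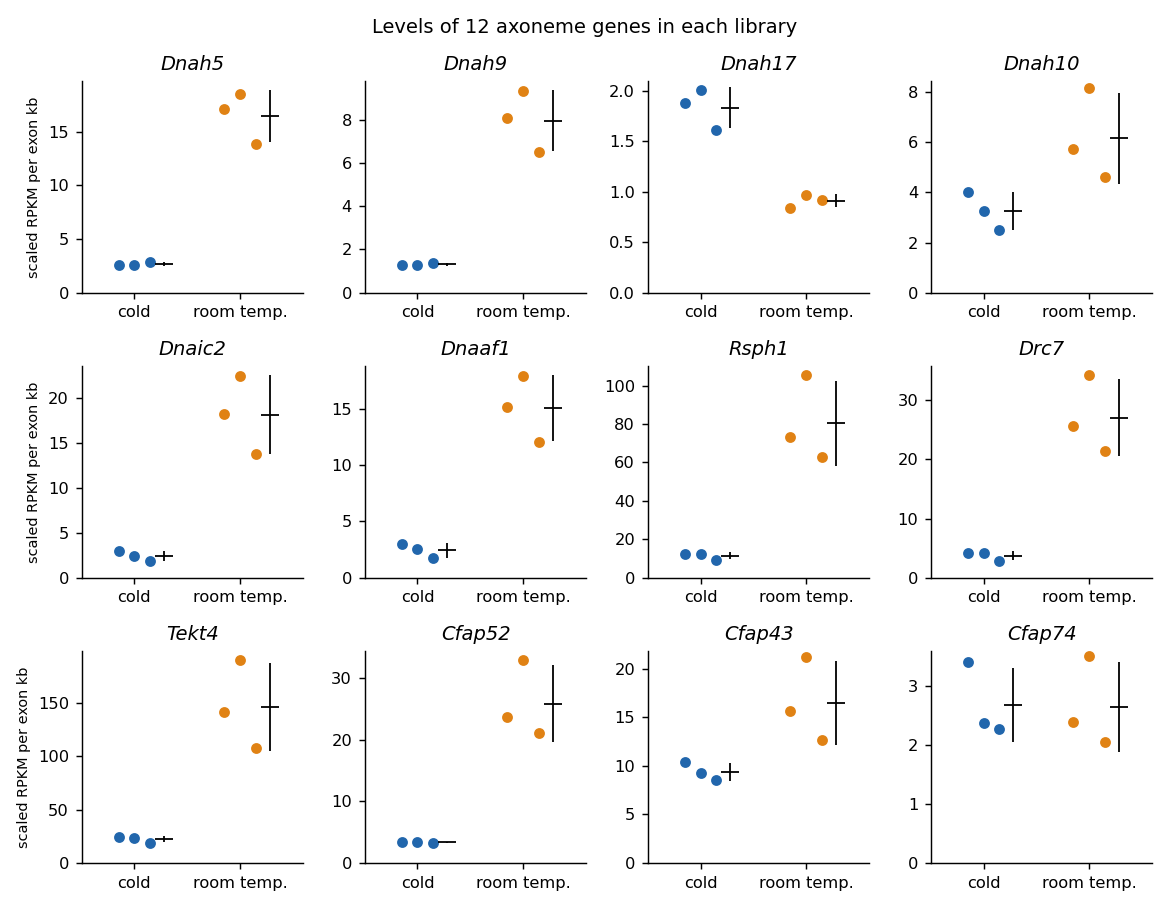
Scaled RPKM per exon kilobase of 12 axoneme genes in the 3 cold and the 3 room temperature libraries (points), with the mean and SD (bar). Dnah17 is higher in cold, Cfap74 overlaps between the groups, and the other 10 are lower in all 3 cold libraries than in any room temperature library.

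All 7 radial spoke genes were lower in cold, with a median of -2.23, and 5 of the 7 fell more than the median of the 63 genes. Rsph1 (chr17:31255019-31277383), with the levels given above, had a change of -2.74 ± 0.20 (adjusted p = 5.91e-05). Rsph9, also of the spoke head, stood at 5.67, 6.17 and 5.1 in cold, against 32.8, 45.4 and 25.3 at room temperature, a change of -2.51 ± 0.20 (adjusted p = 6.72e-05). Rsph4a, a further head protein, stood at 5.34, 5.0 and 6.47 in cold, against 26.1, 25.5 and 19.6 at room temperature, a change of -2.05 ± 0.15 (adjusted p = 5.37e-05). All cold values of these head proteins lay below all room temperature values. Rsph14 changed by -2.39 ± 0.22 and Rsph10b by -1.23 ± 0.18, the weakest fall of the 7. Rsph3a and Rsph3b, copies of the spoke stalk protein gene on chromosome 17, changed by -2.10 ± 0.17 and -2.23 ± 0.14, but 58.1% and 69.2% of their words are shared, mainly with each other.

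Both genes of the nexin-dynein regulatory complex fell more than the median. Drc7 (chr8:95055103-95078141) stood at 4.11, 4.22 and 2.9 in cold, against 25.6, 34.2 and 21.4 at room temperature, a change of -2.79 ± 0.21 (adjusted p = 5.73e-05). Drc1, of the base of the complex, stood at 5.85, 4.7 and 5.4 in cold, against 27.1, 33.9 and 22 at room temperature, a change of -2.32 ± 0.17 (adjusted p = 5.37e-05). Each cold library lay well below each room temperature library for both.

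Of the 5 tektins 4 were lower in cold. Tekt4 (chr17:25454615-25476602) had a change of -2.67 ± 0.21 (adjusted p = 6.53e-05). Tekt1 stood at 8.71, 7.82 and 7.04 in cold, against 41.6, 57.2 and 31.9 at room temperature, a change of -2.39 ± 0.21 (adjusted p = 8.18e-05). Tekt2 stood at 7.61, 7.37 and 4.46 in cold, against 18.5, 25.3 and 15.5 at room temperature, a change of -1.58 ± 0.25 (adjusted p = 0.00102). These 3 abundant tektins were separated between the groups. Tekt3 was low, with 9.81 to 144 recovered reads, at 0.152, 0.171 and 0.205 in cold, against 1.37, 1.98 and 0.960 at room temperature. Its change was -1.86 ± 0.24 (adjusted p = 0.000323), which the 0.5 RPM added before the log understates, and its log2 value in the authors' deposited table was -2.58. Tekt5, known in mouse from sperm, was not called, at 0.443, 0.614 and 0.446 in cold, against 0.428, 0.680 and 0.567 at room temperature, a change of -0.10 ± 0.19 (adjusted p = 0.658), and its groups overlapped. With library-total scaling its change was 0.11, so its direction depends on the scaling.

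The largest falls of single genes, Cfap77 and Cfap52, were among the proteins of the doublet lumen. All 7 were lower in cold, with a median of -2.33, beside -2.56 for the nexin-dynein regulatory complex. Cfap77 (chr2:28926949-29055066) fell most of all 63 genes, standing at 1.74, 1.57 and 1.14 in cold, against 14, 18.8 and 10.6 at room temperature, a change of -3.11 ± 0.23 (adjusted p = 5.67e-05). Cfap52 (chr11:67924806-67965651) stood at 3.41, 3.39 and 3.26 in cold, against 23.7, 32.9 and 21.1 at room temperature, a change of -2.84 ± 0.16 (adjusted p = 4.87e-05). Cfap126, known as Flattop, stood at 9.81, 9.6 and 7.79 in cold, against 60.0, 70.9 and 42.8 at room temperature, a change of -2.61 ± 0.19 (adjusted p = 5.66e-05). All 3 were at a level in cold that no room temperature library approached. Cfap45 (-2.33 ± 0.17), Cfap161 (-2.21 ± 0.17) and Cfap53 (-1.94 ± 0.15) lay between. Cfap20, at the inner junction of the doublet, fell least of the 7, at 5.17, 4.84 and 4.64 in cold, against 10.6, 14.3 and 10.2 at room temperature, a change of -1.23 ± 0.14 (adjusted p = 0.000212).

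The 5 central apparatus genes of the naming rule had a median of -0.88, beside -1.78 over the 63, and 4 of them were called lower. Hydin and Spag6l, of the same apparatus but outside the rule, fell further, by -1.96 ± 0.14 and -2.56 ± 0.17. Cfap69 (chr5:5579278-5664239), of the C1 side of the apparatus, stood at 4.02, 3.77 and 3.51 in cold, against 6.07, 8.57 and 4.72 at room temperature, a change of -0.72 ± 0.20 (adjusted p = 0.0140), the smallest among the 57 genes called lower. Its call was lost with library-total scaling (-0.40, adjusted p = 0.0722), on deposited RPKM (-0.40, adjusted p = 0.0977) and without cold replicate 3 (-0.68, adjusted p = 0.0529). Cfap46 stood at 3.37, 3.14 and 2.88 in cold, against 5.63, 7.56 and 4.6 at room temperature, a change of -0.88 ± 0.18 (adjusted p = 0.00277). Cfap74 stood at 3.41, 2.38 and 2.27 in cold, against 2.39, 3.51 and 2.06 at room temperature, a change of 0.03 ± 0.23 (adjusted p = 0.913), and its groups overlapped in full. Its sign was negative without cold replicate 1 (-0.15) and positive with library-total scaling (0.35). Cfap54 and Cfap221 fell further, with changes of -2.18 ± 0.12 and -1.56 ± 0.18.

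Genes of the docking and regulation of inner arms and spokes were all lower (7 of 7), to different extents. Cfap206 stood at 5.26, 6.25 and 5.91 in cold, against 29.9, 37.5 and 24.4 at room temperature, a change of -2.34 ± 0.16 (adjusted p = 5.20e-05). Cfap57 (-2.46 ± 0.16) and Cfap61 (-2.23 ± 0.12) changed by similar amounts, and these 3 fell more than the median of the 63 genes. Cfap43 and Cfap44, which tether the motor heads of the I1 arm, fell least. Cfap43 (chr19:47736857-47919287) stood at 10.4, 9.26 and 8.48 in cold, against 15.6, 21.1 and 12.7 at room temperature, a change of -0.78 ± 0.19 (adjusted p = 0.00648). Cfap44 (chr16:44394796-44482428) stood at 5.34, 4.98 and 4.67 in cold, against 7.96, 11.1 and 6.6 at room temperature, a change of -0.74 ± 0.18 (adjusted p = 0.00777). On deposited RPKM the call of Cfap43 was lost (-0.45, adjusted p = 0.0536). Cfap100 and Cfap73 form a complex that regulates the same arm in the alga Chlamydomonas. Cfap100 stood at 6.23, 5.94 and 5.35 in cold, against 12, 17.8 and 8.51 at room temperature, a change of -1.05 ± 0.25 (adjusted p = 0.00657), and Cfap73 changed by -1.80 ± 0.25. Cfap43, Cfap44 and Cfap100, like Dnah2 and Dnah10, thus fell less than the median, while Cfap73 could not be told from it.

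The other 6 Cfap genes had a median of -1.46, and 5 were lower. Cfap157, a Foxj1 target of the ciliary base in mouse, stood at 6.68, 6.04 and 4.95 in cold, against 16.3, 22.8 and 13.9 at room temperature, a change of -1.52 ± 0.19 (adjusted p = 0.000346). Cfap36 stood at 7.45, 8.19 and 6.07 in cold, against 16.3, 19 and 13.6 at room temperature, a change of -1.15 ± 0.16 (adjusted p = 0.000455). Cfap58, needed for the sperm flagellum in mouse, stood at 1.91, 1.93 and 2.02 in cold, against 11.3, 12.9 and 9.12 at room temperature, a change of -2.41 ± 0.14 (adjusted p = 4.87e-05). Their groups did not overlap. Cfap70 changed by -2.10 ± 0.14 and Cfap99 by -1.40 ± 0.26. Cfap97 was not called, at 2.4, 2.65 and 3.09 in cold, against 2.78, 3.1 and 2.75 at room temperature, a change of -0.09 ± 0.12 (adjusted p = 0.551). With library-total scaling its change was 0.23, so its direction depends on the scaling too. Snx25 on the opposite strand, with which Cfap97 shares words, rose by 0.93 ± 0.12 (adjusted p = 0.000325), and its part in the Cfap97 value was not tested.

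Axoneme genes outside the naming rule fell with the 63. Of 40 listed, 39 were tested and all 39 were lower, with a median of -1.96. They include Hydin of the central apparatus (-1.96 ± 0.14), Gas8 of the nexin-dynein complex (-2.01 ± 0.18), Armc4 of outer arm docking (-2.64 ± 0.14) and Spag6l of the central apparatus (-2.56 ± 0.17). Ccdc39 and Ccdc40 form the ruler that spaces the arms along the doublet, and they differed widely: Ccdc40 changed by -2.60 ± 0.18, but Ccdc39 by -0.46 ± 0.18 (adjusted p = 0.0494). The Ccdc39 call was lost in 12 of 15 alternatives, with an adjusted p of up to 0.476 and a change of -0.63 to -0.14. The lists overlap: Lrrc23 is also a ciliated cell marker, Ccdc103 is also among the assembly genes and Dynlrb2 is both a ciliated cell marker and a cytoplasmic dynein gene.

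Tubulins, which form the doublets, and cytoplasmic dyneins, relatives of the axonemal motors, included genes that were lower and genes that were higher. Of 11 tubulin genes 6 were lower and 2 higher, and of 13 cytoplasmic dynein genes 7 were lower and 3 higher, beside 35.0% lower and 35.5% higher of all genes. Tubb4b, the main beta-tubulin of cilia, changed by -1.96 ± 0.18 and Tuba1a by -1.73 ± 0.19, while Tubb2a changed by 0.85 ± 0.13 and Tubb4a by 0.78 ± 0.21. Dync2h1, the motor of retrograde transport within cilia, changed by -1.52 ± 0.12, and the motor of the cell body, Dync1h1, by 0.27 ± 0.09.

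Markers of several cell types also differed between the groups, in both directions. The ciliated cell markers were lower in 14 of 14 tested (median -2.45), at a summed scaled RPM of 1169 to 1197 in cold and 3871 to 5688 at room temperature. Their defining factor Foxj1 changed by -3.11 ± 0.24. All 8 club cell markers were lower (median -2.30, summed 21569 to 25175 in cold and 86954 to 114008 at room temperature), as were the 3 basal cell markers tested of 4 (median -5.68, summed 1.09 to 4.16 in cold and 116 to 314 at room temperature). All 5 cardiomyocyte markers were lower as well (median -2.05, summed 119.9 to 240.0 in cold and 370.2 to 1429 at room temperature). Within room temperature they did not follow the axoneme genes. The mean log2 deviation of the cardiomyocyte list was 1.89, 0.00107 and 1.89 in replicates 1 to 3. That of the 63 genes was 0.80, 1.13 and 0.55. All 7 endothelial markers were higher (median 4.28, summed 1373 to 1644 in cold and 58.6 to 284 at room temperature). Of 7 alveolar type 2 markers 5 were higher and 0 lower (median 2.36, summed 10383 to 14085 in cold and 3542 to 6236 at room temperature), and of 6 alveolar type 1 markers 4 were higher and 1 lower (median 1.99, summed 1527 to 1765 in cold and 476 to 703 at room temperature). Room temperature replicate 3, the lowest of its group in most axoneme genes, was also the one nearest to the cold libraries in the endothelial list, at a mean log2 deviation of -0.50 against -2.18 and -3.05 in the others. A difference between the groups in which tissue was taken with the lung and an effect of cold on the axoneme genes cannot be told apart. Without room temperature replicate 3 the median of the 63 genes was -1.90, and without replicate 2 it was -1.64.

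**Figure D5:**
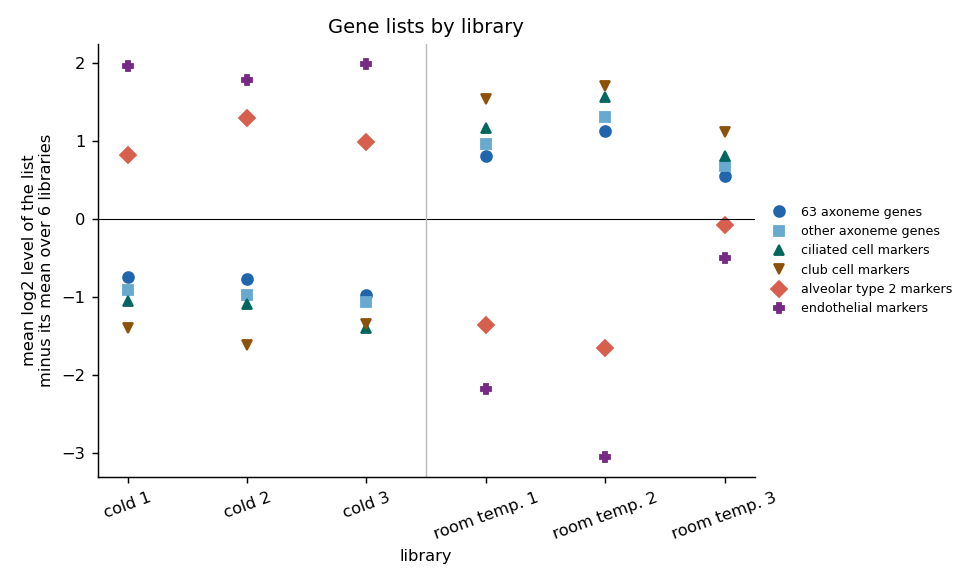
Mean log2 level of 6 gene lists in each library, minus the mean of the list over the 6 libraries. The 63 axoneme genes lay at -0.74 to -0.97 in cold and at 0.55 to 1.13 at room temperature, and the endothelial markers at 1.79 to 1.99 in cold and at -3.05 to -0.50 at room temperature.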

How the data were processed

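Lung RNA of 6 libraries was made with a NEBNext Ultra II kit, per the labels' protocols, and aligned to mm10, per the submitters' processing notes. The sources used here do not give the aligner, counter, gene model or strandedness. The deposited values are the authors' RPKM per gene and library to 3 decimals, with the authors' log2 fold change, p-value and q-value. In all 18174 rows that log2 value is the ratio of group means with 0.001 added, and the q-value follows from the p-value by Benjamini-Hochberg adjustment.

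Value times gene span (GENCODE M21, introns included) fell on whole steps, with a phase coherence of 0.803 to 0.840, against at most 0.280 for exon length. Among genes of at most 20 reads and a span below 5 kb, 83.2% to 86.2% of recovered read numbers were whole within 0.1. Whether intronic reads were counted is not known, so levels compared between genes are approximate. A span was missing for 92 rows. The number of per-library columns matching no sample was 0.

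RPM, reads per M reads, is RPKM times span in kilobases. It was divided by an unweighted trimmed-mean factor per library (30% of ratios, 5% of averages), 1.12 to 1.13 in cold and 0.856 to 0.953 at room temperature. limma 3.58.1 in R 4.3.3 (trend, robust, group only) was run on log2(scaled RPM + 0.5), which understates changes of low genes. Genes needed what 10 reads make in a library of median depth, in at least 3 libraries, and 15 reads over all libraries. Tests were two-sided. A second fit subtracted the members' median per library, with adjustment over all genes tested and not over the members alone.

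The members, lists and roles were chosen with earlier results of these data known. Per-library values are given for the 3 most abundant genes per role (per exon kilobase), those not called lower, and the 3 largest and smallest changes. Dnah2, Dnal1, Tekt3 and Cfap44 were added after their values were seen. The labels number replicates 1 to 3 in both groups, and deviations of same-numbered libraries correlated at 0.115, 0.149 and 0.156, each over 0.1, so the numbers were treated as pairs in an alternative. Replicates differed by more than sampling noise (chi-square per degree of freedom of 16.0 to 89.5). On simulated data 92% to 100% of genes changed by 1 or 2 on the log2 scale were called, and 0.0665% of unchanged genes. That simulation changed 50 genes at each step and left 15036 unchanged, with a single fixed spread and no scaling between libraries. Far more genes are called in the real data, so these rates do not carry over to it. Heavy chain proteins were not analysed here. The sequence of 1 promoter site is not reported here.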

Additional observations from a re-analysis of the deposited data

How the results depend on the processing

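Of 15 alternatives to the fit, 9 changed the scaling, the amount added, the filter, the model or the pairing and 6 left out 1 library each. The count of axoneme genes lower in cold was 53 to 57 over the 9 and 56 to 57 over the 6, and the median change -1.83 to -1.47 and -1.90 to -1.64. With library-total scaling the median of all genes moved to 0.29, 65.1% of all calls were higher (7034 higher and 3766 lower, against 5412 and 5335), the median of the 63 genes was -1.47, that of the other axoneme genes -1.65, and 3 of the 63 were higher. On deposited RPKM plus 0.01 these values were -1.50, -1.59 and 2, and 13 genes fell less than the median of the 63 and 31 more. The members' distance from the median of all genes was -1.76 with library-total scaling and -1.79 in the reported fit. With a replicate block (the same-numbered libraries as pairs) 57 were lower and 1 higher, 26 fell more and 22 less than the median of the 63, 38 other axoneme genes were lower, and no call of a named member changed. Over the 9, 23 to 31 fell more and 13 to 22 less than the median, and without a library 20 to 26 fell more and 21 to 22 less than the median. Ordered per gene span, 5 of the 10 highest genes were shared with the order per exon length. The single X-box arm was in 35.8% of promoters, against 0 for the full site. Under the 30-read filter Dnah14 was not tested. Depth limits Dnah14, Dnah8, Tekt3 and Tekt5, and 3 libraries per group limit every interval.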
